A study of Mus musculus with 8 samples.

Results

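The genes described here are 10 mouse genes that the resident macrophages of the bone marrow express, C1qa, C1qb, C1qc, Hmox1, Slc40a1, Spic, Vcam1, Mertk, Cd5l and Igf1, out of 41214 genes counted in RNA-seq of whole bone marrow (BM) cells. They were taken by name with earlier results of these data known, and all 10 were matched to an Ensembl identifier. Igf1 was chosen by its low level in sick KD mice, so its values against those mice are a description without a test.

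Whole BM of 8 C57Bl6 mice was profiled, with 2 mice in each of 4 groups and 1 library per mouse. All 8 mice carried a changed Gfi1 locus, and no mouse with the unaltered gene was analysed here. Gfi1 encodes a transcriptional repressor that blood progenitors need to form neutrophils. KO mice lack Gfi1, whereas KD mice express human GFI1 at a low dose from a knocked-in cDNA that carries an antisense floxed neomycin cassette. By age, the young groups were KD mice of 39 and 42 days and KO mice of 48 and 44 days. The old KO mice were 158 and 101 days old, and the sick KD mice were 187 and 78 days old. The labels give AML for the sick KD mice, whereas the study describes a myeloproliferative neoplasm. Age and disease therefore differed together between sick KD and young KD mice, and genotype and disease between old KO and sick KD mice.

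The libraries held 26642067 to 42679114 counts on genes. The 2 sick KD libraries had the highest share of uniquely mapped reads outside genes, 42.0% and 38.8% against 26.9% to 33.8% in the other 6. Counts on the mouse Gfi1 gene were at 13.2 to 29.9 CPM in the 4 libraries labelled KO and at 5.43 to 7.08 CPM in the 4 labelled KD, so this gene goes against a plain reading of the labels. The human cDNA and reads left by the KO allele were not counted apart here, and every KO-to-KD direction below rests on the labels alone. CPM are counts scaled to library size after TMM normalization over all 8 libraries.

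Resident macrophages of the marrow surround maturing erythroblasts, take up the nuclei they expel and the old cells they replace, and return the iron. C1qa, C1qb and C1qc encode the chains of C1q, the first component of the classical complement pathway, which also tags dying cells for uptake. Hmox1 opens the heme ring, Slc40a1 (ferroportin) exports the freed iron, and Spic encodes a transcription factor that red pulp and marrow macrophages need. Vcam1 encodes an adhesion molecule for integrin α4β1, Mertk a receptor for apoptotic cells, Cd5l a secreted scavenger protein of tissue macrophages, and Igf1 a growth factor. Vcam1 and Igf1 are also expressed by stromal cells, Vcam1 by endothelium and Hmox1 by many cells under oxidative stress, so the label of macrophage genes is not exclusive.

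The 3 C1q genes are neighbours on the minus strand of chromosome 4 (GRCm38), C1qb at 136880129 to 136886187, C1qc at 136889804 to 136893065 and C1qa at 136895917 to 136898803, within 18.7 kb. Vcam1 lies on chromosome 3 at 116109949 to 116129688 and Cd5l on the same chromosome at 87357881 to 87371073. Spic (88674772 to 88685015) and Igf1 (87858265 to 87937042) lie on chromosome 10, Hmox1 on chromosome 8 (75093621 to 75100589), Slc40a1 on chromosome 1 (45908068 to 45926523) and Mertk on chromosome 2 (128698956 to 128802894). Annotated genes overlap Mertk and Igf1 only, and those had at most 1 count in any library.

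RefSeq promoter windows of 250 bases before the start (GRCm38.p6) were matched for 6 of the 10 genes, C1qb, C1qc, Spic, Mertk, Cd5l and Igf1. The windows of C1qb and Cd5l are printed because these genes stand for the C1q cluster and for the member with the largest difference between old KO and sick KD. Capitals mark matches on either strand to GAGGAA, the core bound by PU.1 and Spi-C, to TGCTGA, a core bound by Maf factors, and to TGACNNNGC, the element of NRF2 and BACH1. The motifs do not overlap one another in these windows.
C1qb promoter, chr4:136886201-136886450, minus strand: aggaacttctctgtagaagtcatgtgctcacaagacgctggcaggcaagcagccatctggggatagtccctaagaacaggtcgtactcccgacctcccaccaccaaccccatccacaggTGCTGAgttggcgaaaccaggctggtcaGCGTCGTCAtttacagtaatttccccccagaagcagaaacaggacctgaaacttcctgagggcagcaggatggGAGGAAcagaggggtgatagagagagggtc
Cd5l promoter, chr3:87357631-87357880, plus strand: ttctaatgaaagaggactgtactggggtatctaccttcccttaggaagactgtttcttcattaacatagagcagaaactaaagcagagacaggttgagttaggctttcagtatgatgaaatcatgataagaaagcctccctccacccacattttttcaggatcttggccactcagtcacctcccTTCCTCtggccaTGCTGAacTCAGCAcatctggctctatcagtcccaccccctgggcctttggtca
The C1qb window held 1 match to each motif, with TGCTGA 131 bases, TGACNNNGC 103 bases and GAGGAA 30 bases before the start. The Cd5l window held GAGGAA at 66 bases and TGCTGA at 54 and 46 bases before the start, the latter pair on opposite strands. GAGGAA was in 4 of the 6 windows, against 23.3% of all 32851 promoter windows. TGCTGA was in 3 of 6, against 16.1%, and TGACNNNGC in 1 of 6, against 10.2%. Mertk held none of the 3 strings. These are matches of letters in short windows and not binding sites.

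Sick KD mice had the lowest levels of most of these genes and old KO mice the highest. In 8 of 10 genes both sick KD libraries lay below each of the other 6 libraries, against 24.7% of the 15102 genes tested in all mice. The group means ran in the order sick KD, young KD, young KO, old KO in 7 of 10 genes, against 9.51% of all genes. Both counts include genes picked with their levels known, Igf1 among them for the first count. In bulk marrow, fewer macrophages and less RNA per macrophage cannot be told apart.

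**Figure D1:**
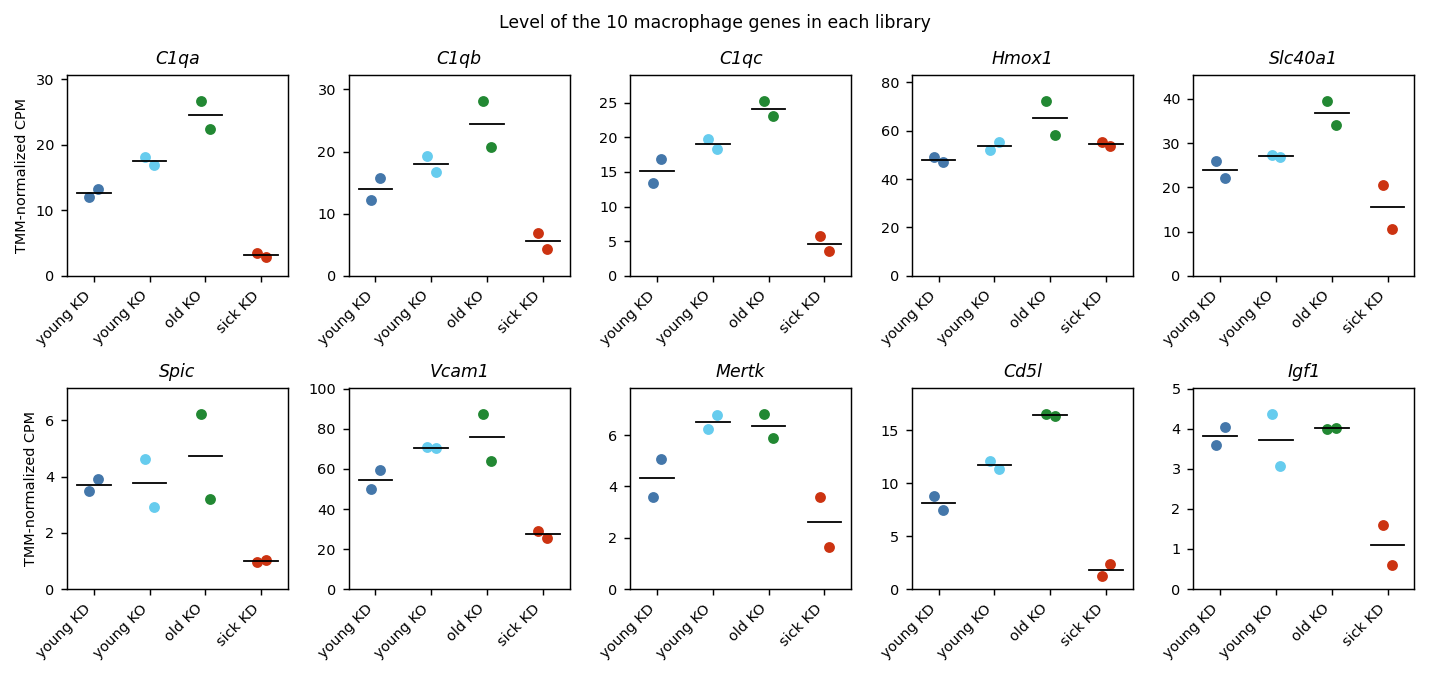
TMM-normalized CPM (y axis, from 0) of each of the 10 genes in the 4 groups; a point is 1 library (1 mouse) and a line the mean of 2. The sick KD points are the lowest in 8 panels, those of Mertk reach into the young KD points, and those of Hmox1 lie between 53.8 and 55.4 CPM, among the other groups.

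The complement chains were lower in sick KD than in any other library. C1qa was at 12.0 and 13.3 CPM in young KD, 18.1 and 16.8 in young KO, 26.7 and 22.4 in old KO, and 3.51 and 2.82 in sick KD mice. C1qb was at 12.2 and 15.7 CPM in young KD, 19.3 and 16.6 in young KO, 28.2 and 20.8 in old KO, and 6.91 and 4.23 in sick KD mice. C1qc was at 13.4 and 16.8 CPM in young KD, 19.7 and 18.4 in young KO, 25.3 and 23.0 in old KO, and 5.75 and 3.52 in sick KD mice. For each chain the 4 groups formed 4 separate pairs with no overlap between neighbours in the order. That order was read from these same values, and the share of all genes that separate in this way was not counted. Per kilobase of exon, the old KO means were 23.6 CPM for C1qa, 22.5 for C1qb and 12.5 for C1qc. The lengths, 1040, 1088 and 1931 bases, join all annotated exons of a gene. They need not be those of the transcripts present, which limits a comparison of the chains.

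The genes of iron and heme did not move together. Slc40a1 was at 25.8 and 22.2 CPM in young KD, 27.2 and 26.9 in young KO, 39.6 and 34.1 in old KO, and 20.4 and 10.5 in sick KD mice. The sick KD mice were the lowest, but mouse 1 lay close to the young KD mice and the SD was 7.03 around a mean of 15.4 CPM (n = 2). Hmox1 was at 49.0 and 47.0 CPM in young KD, 51.9 and 55.4 in young KO, 72.4 and 58.2 in old KO, and 55.4 and 53.8 in sick KD mice. Its sick KD values lay beside those of young KO, and only old KO stood above the other groups. Spic was at 3.49 and 3.91 CPM in young KD, 4.62 and 2.92 in young KO, 6.22 and 3.21 in old KO, and 0.958 and 1.02 in sick KD mice. The 3 healthy groups overlapped for Spic, and both sick KD libraries, with 24 and 29 reads, lay below all of them.

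Among the adhesion and uptake genes, Vcam1 had the most reads. It was at 49.8 and 59.4 CPM in young KD, 71.0 and 70.5 in young KO, 87.4 and 64.2 in old KO, and 29.2 and 25.5 in sick KD mice. Old KO and young KO overlapped, and sick KD lay below the rest. Mertk was at 3.59 and 5.08 CPM in young KD, 6.23 and 6.76 in young KO, 6.82 and 5.89 in old KO, and 3.59 and 1.66 in sick KD mice. Sick KD mouse 1 was thus level with the lower young KD mouse, and both KO groups stood above both KD groups. Cd5l was at 8.82 and 7.43 CPM in young KD, 12.1 and 11.4 in young KO, 16.5 and 16.3 in old KO, and 1.24 and 2.33 in sick KD mice. Its 4 groups did not overlap, again without a share over all genes to set beside this. Igf1 was at 3.59 and 4.03 CPM in young KD, 4.37 and 3.08 in young KO, 4.01 and 4.01 in old KO, and 1.60 and 0.599 in sick KD mice. The 3 healthy groups overlapped for Igf1, and its sick KD values rest on 40 and 17 reads.

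To ask whether the KO and KD genotypes differ before disease, young KO mice were compared with young KD mice. The log2 fold change was above 0 for 9 of 10 genes, against 47.7% of 14839 genes tested, with a median of 0.34 against -0.01 over all genes. None of the 10 passed the adjusted threshold of 0.05 in edgeR's quasi-likelihood test, as only 0.0404% of all genes did, and none passed in DESeq2. At an unadjusted p under 0.05, 4 genes were higher in young KO mice, against 1.14% of all genes. Those were C1qa (0.46, SE 0.11), Cd5l (0.52, SE 0.14), Vcam1 (0.36, SE 0.11) and Mertk (0.57, SE 0.22). The log2 fold change was 0.36 (SE 0.16) for C1qb and 0.32 (SE 0.14) for C1qc. Igf1, for which this comparison is independent of its choice, differed by -0.04 (SE 0.24), and Spic by 0.02 (SE 0.26). The sign of both reversed with 1 mouse left out, to -0.34 for Spic without young KO mouse 1 and -0.06 without young KD mouse 1, and to 0.18 for Igf1 without young KO mouse 2 and 0.05 without young KD mouse 2.

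Old KO mice were compared with sick KD mice, the comparison of age-matched healthy and diseased mice in the study. In the libraries labelled old KO, 7 of the 9 genes tested were higher at an adjusted p under 0.05, against 9.93% of all genes, and 0 were lower. The median log2 fold change was 2.13, against -0.00499 over all genes. Cd5l rose most in old KO relative to sick KD, by a log2 fold change of 3.18 (SE 0.31, edgeR adjusted p = 0.00416). C1qa differed by 2.94 (SE 0.21, edgeR adjusted p = 0.00275), C1qc by 2.37 (SE 0.25, 0.00493) and C1qb by 2.13 (SE 0.28, 0.00627). Spic was 2.23 higher (SE 0.39, edgeR adjusted p = 0.0134), Vcam1 1.46 higher (SE 0.18, 0.00532) and Slc40a1 1.24 higher (SE 0.29, 0.0301). Mertk differed by 1.26 (SE 0.37, edgeR adjusted p = 0.0587) and Hmox1 by 0.24 (SE 0.14, 0.250), and neither passed. The difference of Igf1 was 1.86, without a test. The call of Spic was lost without sick KD mouse 1 (2.18, edgeR adjusted p = 0.0574). Mertk passed without sick KD mouse 1 (1.92, edgeR adjusted p = 0.0240), without old KO mouse 2 (1.37, 0.0368) and in DESeq2 (adjusted p = 0.0209). Without sick KD mouse 1 the difference of Igf1 was 2.72.

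Sick KD mice were also compared with young KD mice of the same genotype. This comparison shares the sick KD mice with the preceding one, so the values are given side by side and are not separate evidence. In sick KD mice, 6 of the 9 genes tested were lower, against 11.4% of all genes, and the median log2 fold change was -1.31 against 0.01. Cd5l fell by 2.17 (SE 0.33, edgeR adjusted p = 0.0108), C1qa fell by 1.99 (SE 0.20, 0.00489) and Spic fell by 1.89 (SE 0.27, 0.00931) on the log2 scale. C1qc fell by 1.70 (SE 0.27, edgeR adjusted p = 0.0120), C1qb fell by 1.31 (SE 0.27, 0.0227) and Vcam1 fell by 0.99 (SE 0.14, 0.00949). Mertk differed by -0.72 (SE 0.40, edgeR adjusted p = 0.242), Slc40a1 by -0.63 (SE 0.30, 0.171) and Hmox1 by 0.20 (SE 0.10, 0.217). For Igf1 the difference was -1.80, without a test. Slc40a1 passed without sick KD mouse 1 (-1.19, edgeR adjusted p = 0.0144). In that fit Mertk differed by -1.37 (edgeR adjusted p = 0.0588) and Igf1 by -2.65.

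Among KO mice, the old were compared with the young. None of the 10 genes passed the adjusted threshold in edgeR or DESeq2, as 0.929% of all genes did in edgeR, and the adjusted p-values ran from 0.207 to 0.988. At an unadjusted p under 0.05, 5 genes were higher in old KO mice, against 4.44% of all genes. Those were C1qa (log2 fold change 0.49, SE 0.13), Cd5l (0.49, SE 0.12), C1qb (0.45, SE 0.17), Slc40a1 (0.45, SE 0.11) and C1qc (0.35, SE 0.11). C1qa (adjusted p = 0.0379) and Slc40a1 (adjusted p = 0.0272) passed in edgeR when no genes were filtered. Igf1 differed by 0.11 (SE 0.24), Spic by 0.32 (SE 0.39), Vcam1 by 0.10 (SE 0.16) and Mertk by -0.03 (SE 0.18). The sign of these 4 turned with 1 mouse left out. It was -0.24 for Spic and -0.14 for Vcam1 without old KO mouse 1, -0.11 for Igf1 without young KO mouse 2, and 0.08 and 0.04 for Mertk without old KO mouse 2 and young KO mouse 2.

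**Figure D2:**
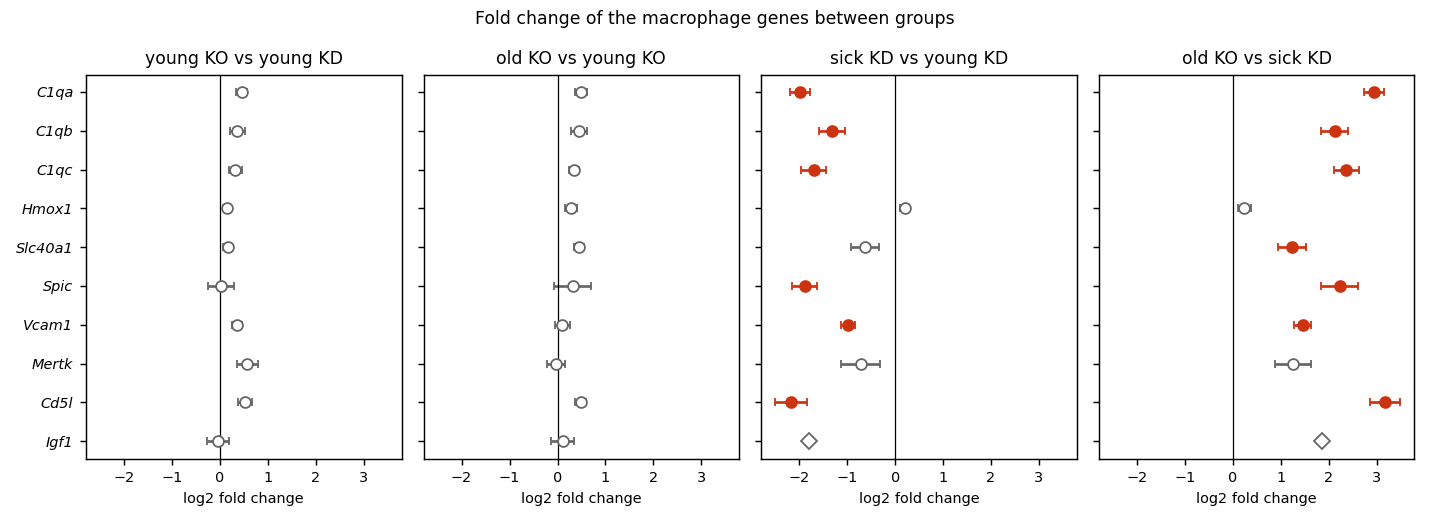
Log2 fold change (x axis) of each gene (y axis) in the 4 comparisons; circles are edgeR estimates with bars of 1 SE, filled red at an adjusted p under 0.05, and open diamonds are values of Igf1 without a test. Filled points occur in the 2 comparisons with sick KD, 6 of them below 0 against young KD and 7 above 0 in old KO.

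Whether genotypes differed more in the older groups than in the young was tested as an interaction over all 8 mice, as old KO minus sick KD less young KO minus young KD. It was positive and past the threshold for 6 of 9 genes, against 4.32% of all genes. The extra log2 difference was 2.65 for Cd5l (SE 0.34, edgeR adjusted p = 0.0107), 2.48 for C1qa (SE 0.22, 0.00769) and 2.04 for C1qc (SE 0.31, 0.0151). It was 2.20 for Spic (SE 0.51, edgeR adjusted p = 0.0429), 1.76 for C1qb (SE 0.36, 0.0310) and 1.09 for Vcam1 (SE 0.23, 0.0337). Slc40a1 (1.08, edgeR adjusted p = 0.104), Mertk (0.68, 0.387) and Hmox1 (0.09, 0.774) did not pass. Igf1 had a value of 1.90, without a test. Only C1qa and Cd5l stayed past the threshold with each of the 8 mice left out in turn. The number of genes past the threshold was 3 without old KO mouse 1, young KD mouse 1 or young KD mouse 2 and 2 without young KO mouse 1 or young KO mouse 2. Without sick KD mouse 1, Slc40a1 passed (1.63, edgeR adjusted p = 0.0137), Mertk was at 1.34 and Igf1 at 2.76.

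The counts of the C1q chains also shifted against each other. C1qb made up 66.3% (95% exact Clopper-Pearson interval 60.2 to 72.0) of the summed C1qa and C1qb read counts in sick KD mouse 1, with 173 reads of C1qb and 88 of C1qa. In sick KD mouse 2 the share was 60.0% (52.9 to 66.8), with 120 and 80 reads. The other 6 libraries lay between 48.2% and 54.2%, so the ratio of C1qb to C1qa was 1.97 and 1.50 in sick KD and 0.930 to 1.18 elsewhere. The interval of sick KD mouse 2 overlapped those of young KD mouse 1 (47.1 to 53.5) and young KD mouse 2 (50.9 to 57.3). It also overlapped those of young KO mouse 1 (49.1 to 54.0) and old KO mouse 1 (48.8 to 53.9). These intervals cover counting error only. For sick KD against any single other group, 2 mice against 2, an exact permutation p cannot fall below 0.333. The sick KD libraries were not tested against the other 6 together.

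**Figure D3:**
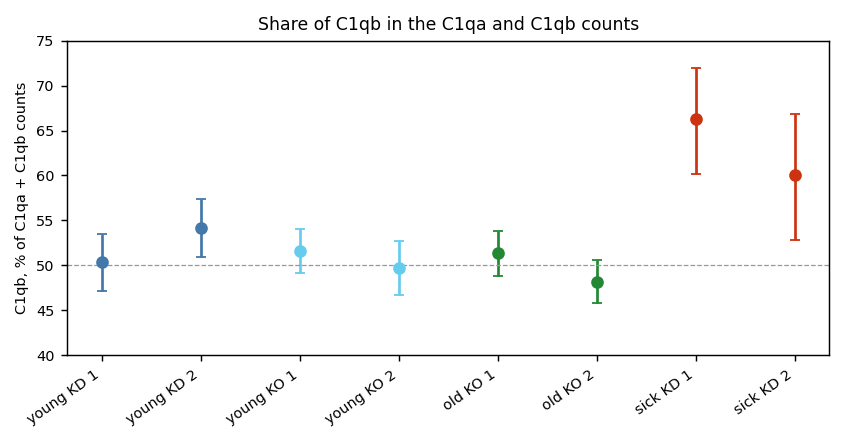
Share of C1qb in the summed counts of C1qa and C1qb (y axis, percent, from 40 to 75) in each of the 8 libraries; bars are exact 95% intervals for counting error and the dashed line marks equal counts. The sick KD libraries sit at 66.3% and 60.0%, the others between 48.2% and 54.2%.

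Across the 8 libraries Pearson's r of log2(CPM + 1) ran from 0.776 (Spic and Mertk) to 0.991 over the 36 pairs of members without Hmox1, with a median of 0.921. It was 0.991 for C1qa and C1qc, 0.982 for C1qa and C1qb, and 0.982 for C1qa and Vcam1. For Hmox1 it ran from 0.0586 with Igf1 to 0.474 with Slc40a1. These correlations share libraries and the same 2 sick KD mice, and are descriptions. Pairs with Igf1 are among them, and Igf1 was chosen by its low level in those mice.

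Of 11118 protein-coding genes searched, those most like the mean of the C1q chains were Pdzk1 (r = 0.998, 8 libraries), Itgb1 (0.988), Axl (0.988), Fcna (0.987) and Slco2b1 (0.985). Pdzk1 had means of 2.09 CPM in young KD, 2.64 in young KO, 3.37 in old KO and 0.460 in sick KD mice. Fcna, which encodes a ficolin of the lectin complement pathway, had means of 13.7, 22.4, 25.6 and 4.09 CPM in the same order. Those most like Igf1 were Klrk1 (r = 0.984), Sla2 (0.983), Pxdc1 (0.983), Prkar2b (0.979) and Micu2 (0.978). Igf1 was chosen by its low level in sick KD mice, so this ranking rests partly on the values behind that choice. Both sick KD libraries lay below the other 6 in 24.7% of genes tested in all mice, and both rankings are descriptions. With a pseudocount of 5, Mrc1 took the place of Axl and Zranb3 that of Pxdc1.

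The label was checked against other markers of macrophages. Adgre1, Csf1r and Cd68, which most macrophages and many monocytes express, were present in all 8 libraries and did not pass in either comparison with sick KD. Adgre1 was at 183 and 159 CPM in sick KD and at 126 to 207 CPM in the other libraries. Markers of tissue macrophages behaved otherwise. The mannose receptor Mrc1 was at 12.5 and 13.8 CPM in sick KD and at 33.3 to 66.7 CPM elsewhere, and was 2.15 higher in old KO (SE 0.17, edgeR adjusted p = 0.00306). The sialoadhesin gene Siglec1 was at 3.75 and 4.23 CPM in sick KD and 7.67 to 15.5 CPM elsewhere (1.84, SE 0.21, edgeR adjusted p = 0.00496). Cd163, the receptor for hemoglobin bound to haptoglobin, was at 1.64 and 3.24 CPM in sick KD and 6.53 to 26.9 CPM elsewhere (3.17, SE 0.37, edgeR adjusted p = 0.00512). General and tissue macrophage markers thus did not share 1 pattern in sick KD mice.

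**Figure D4:**
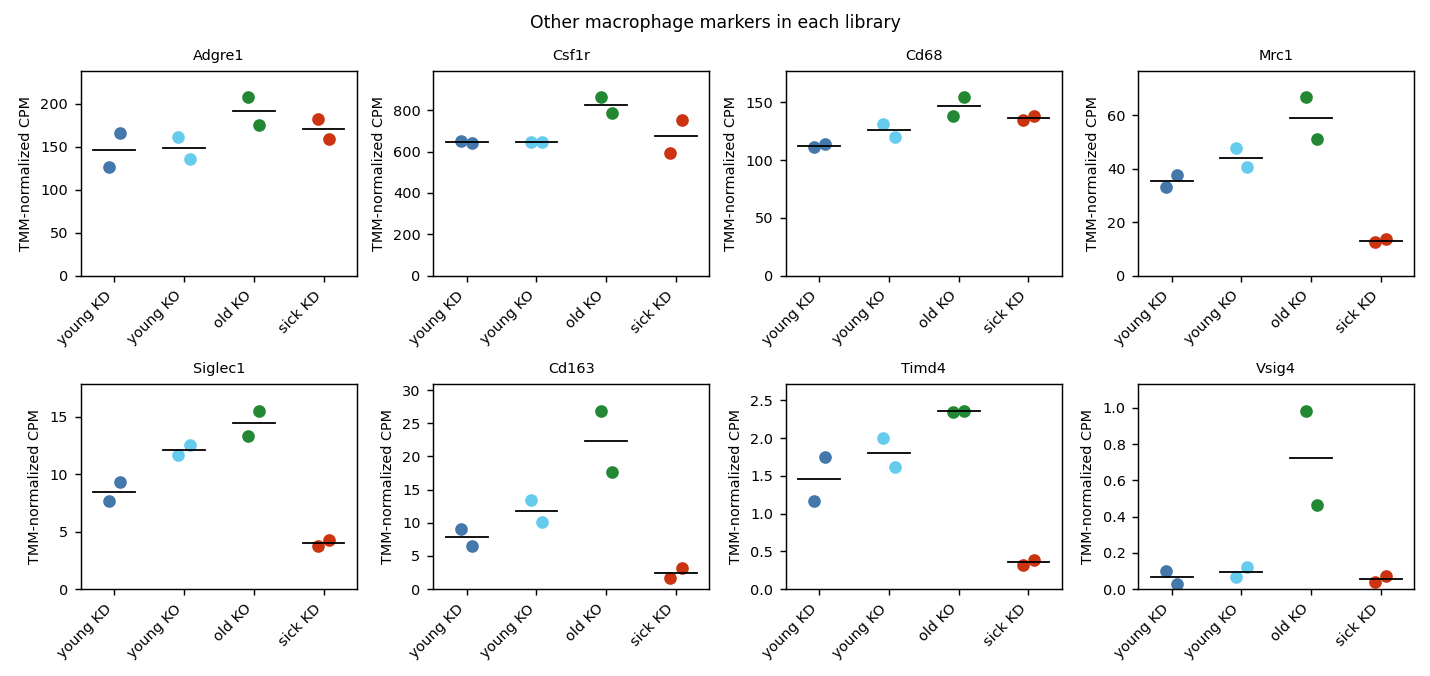
TMM-normalized CPM (y axis, from 0) of 8 macrophage markers outside the 10 genes in the 4 groups; a point is 1 library and a line the mean of 2. Sick KD overlaps every other group for Adgre1 and the young groups only for Csf1r. For Cd68 it lies between young KO and old KO. Mrc1, Siglec1, Cd163 and Timd4 are lowest in the 2 sick KD libraries.

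In the list of other macrophage genes, 9 of 22 tested were higher and 2 lower in old KO than in sick KD (all genes 9.93% and 8.22%), with a median log2 difference of 0.53. Against young KD, 8 of 20 fell and 4 rose in sick KD (all genes 11.4% and 9.45%), with a median of 0.03. Timd4, a receptor for phosphatidylserine, was 2.70 higher in old KO (edgeR adjusted p = 0.00560) and fell by 2.01 in sick KD against young KD (edgeR adjusted p = 0.0188, and 0.0614 without sick KD mouse 1). Cd163 fell by 1.66 (edgeR adjusted p = 0.0254) and Fcna fell by 1.73 (edgeR adjusted p = 0.00564) in that comparison. Gpnmb, a lysosomal glycoprotein of lipid-laden macrophages, went the other way. It was at 29.0 and 11.2 CPM in sick KD and at 3.34 to 6.89 CPM elsewhere, a rise of 2.27 against young KD (edgeR adjusted p = 0.0217) that was 1.43 without sick KD mouse 1. Folr2 and Vsig4 had few reads, and Timd4 was also low in sick KD, at 0.319 and 0.388 CPM. Folr2 had 21 and 22 reads in old KO and 0 and 1 in sick KD, a ratio of 34.1 with a counting interval of 5.80 to 1378, and was not called without sick KD mouse 1 (edgeR adjusted p = 0.0624). In young KD Folr2 had 2 and 6 reads, a ratio to sick KD of 5.83 (0.781 to 258). Vsig4 had 28 and 18 reads in old KO and 1 and 2 in sick KD, a ratio of 12.2 (3.91 to 61.1). With 4 and 1 reads of Vsig4 in young KD, the ratio to sick KD was 1.21 (0.236 to 7.81). Vsig4 was thus not shown to be lower in sick KD than in young KD. Its call was lost without sick KD mouse 1 (edgeR adjusted p = 0.100), sick KD mouse 2 (0.0598) or old KO mouse 1 (0.0661).

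Among iron and heme genes beside Hmox1 and Slc40a1, 6 of 21 were higher and 3 lower in old KO than in sick KD. Of all genes, 9.93% were higher and 8.22% lower. In sick KD against young KD, 7 fell and 2 rose, against 11.4% and 9.45% of all genes. The medians were 0.21 and -0.02. Trf, which encodes transferrin, was 1.48 higher in old KO (edgeR adjusted p = 0.00789), and Blvrb, a biliverdin reductase, 1.20 higher (edgeR adjusted p = 0.00875). Cp (ceruloplasmin) was 1.56 higher (edgeR adjusted p = 0.0240) and Nqo1, a target of NRF2, 1.06 higher (0.0307). Against young KD, Heph (hephaestin) fell by 2.46 in sick KD (edgeR adjusted p = 0.0123), Cp fell by 1.23 (0.0257) and Blvrb fell by 1.10 (0.0192). Heph had few reads, at 0.160 and 0.247 CPM in sick KD against 1.17 and 1.14 CPM in young KD. Lrp1, the receptor for heme bound to hemopexin, rose by 0.97 (edgeR adjusted p = 0.00654) and was at 1057 and 935 CPM in sick KD and 434 to 625 CPM elsewhere. With 1 mouse left out some calls were lost while the log2 differences moved little. In old KO against sick KD, Cp was lost without sick KD mouse 1 (1.35, edgeR adjusted p = 0.0947) or old KO mouse 1 (1.19, 0.0521). Nqo1 was lost without sick KD mouse 1 (1.15, edgeR adjusted p = 0.0823), sick KD mouse 2 (0.97, 0.0856) or old KO mouse 1 (0.96, 0.101). Against young KD, Cp was lost without sick KD mouse 1 (-1.02, edgeR adjusted p = 0.0695) or young KD mouse 1 (-1.24, 0.0577), and Blvrb without sick KD mouse 1 (-0.99, 0.0586).

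Genes for the uptake of apoptotic cells include the relatives and ligand of Mertk. In this list 5 of 21 were higher and 2 lower in old KO than in sick KD (median 0.34). Of all genes, 9.93% were higher and 8.22% lower. In sick KD against young KD, 4 fell and 3 rose (median -0.08), against 11.4% and 9.45% of all genes. Axl, a receptor of the Mertk family, was at 14.3 and 11.2 CPM in sick KD and 30.2 to 50.6 CPM elsewhere. It was 1.94 higher in old KO (edgeR adjusted p = 0.00317) and fell by 1.30 in sick KD against young KD (edgeR adjusted p = 0.00630). Gas6, the ligand of both receptors, was 2.55 higher in old KO (edgeR adjusted p = 0.00662) and fell by 2.02 against young KD (edgeR adjusted p = 0.00844). Havcr1, a phosphatidylserine receptor, had 1 and 5 reads in sick KD and 21 and 39 in old KO, a ratio of 7.93 (counting interval 3.44 to 22.5), and was not called without sick KD mouse 1 (edgeR adjusted p = 0.0959). With 47 and 32 reads in young KD, its ratio to sick KD was 9.59 (4.21 to 26.9). The fitted log2 values of Havcr1, 2.91 and -3.21, were 4.30 and -4.61 without sick KD mouse 2 and 2.27 and -2.57 without sick KD mouse 1. The scavenger receptor Cd36 was 1.39 higher in old KO (edgeR adjusted p = 0.0318) and fell by 1.27 against young KD (edgeR adjusted p = 0.0422). Its calls were lost without sick KD mouse 1 (edgeR adjusted p = 0.105 and 0.115) and with all 8 mice fitted together (0.0511 and 0.0678), and the second also without young KD mouse 1 (0.0759).

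Among the partners of C1q in complement, 4 of 19 were higher and 1 lower in old KO than in sick KD (median 0.25), against 9.93% and 8.22% of all genes. In sick KD against young KD, 3 of 18 fell and 2 rose (median -0.02), near the 11.4% and 9.45% of all genes. Cr2, the complement receptor of B cells, was 2.24 higher in old KO (edgeR adjusted p = 0.00840) and fell by 1.59 against young KD (0.0254, and 0.0527 without sick KD mouse 2). Serping1, the C1 inhibitor, was 2.18 higher (edgeR adjusted p = 0.0256) and fell by 1.40 (0.0286). The integrin chain Itgax was 1.69 higher (edgeR adjusted p = 0.0452), and C5ar1, the C5a receptor, was lower in old KO (log2 fold change -1.30, 0.0189). C4b, which the active C1 complex cleaves, was at 34.6 and 34.3 CPM in sick KD and 30.1 and 26.6 CPM in old KO. Against young KD, at 12.4 and 15.8 CPM, it rose by 1.30 in sick KD (edgeR adjusted p = 0.00608). Cd55, which limits complement on host cells, fell by 1.77 (edgeR adjusted p = 0.00830). Serping1 was lost in old KO against sick KD without sick KD mouse 1 (edgeR adjusted p = 0.0573) or sick KD mouse 2 (0.0746), and stood at 1.44 without old KO mouse 1. Against young KD it was lost without sick KD mouse 2 (edgeR adjusted p = 0.0598), without young KD mouse 1 (0.0515) or with all 8 mice fitted together (0.0627). Itgax was lost without sick KD mouse 1 (edgeR adjusted p = 0.131), without old KO mouse 1 (0.0718) or with trends of GC content and length removed (0.0504), and stood at 2.37 without sick KD mouse 2.

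In the list around VCAM-1, old KO exceeded sick KD for 4 of 13 genes and was lower for 1 (median -0.01). The shares over all genes were 9.93% and 8.22%. In sick KD against young KD, 2 fell and 2 rose (median -0.13), near the 11.4% and 9.45% of all genes. There DESeq2 called 4 lower. Itga9, an integrin chain that binds VCAM-1, fell by 2.60 in sick KD (edgeR adjusted p = 0.00327) and was 1.18 higher in old KO (0.0297). Its old KO libraries, at 4.11 and 3.26 CPM, also lay below the 7.65 and 9.38 CPM of young KO. Icam4, an adhesion molecule of erythroblasts, was 2.04 higher in old KO (edgeR adjusted p = 0.0163) and fell by 1.72 in sick KD (0.0244). The leukocyte ligand Icam1 was 0.72 higher in old KO (edgeR adjusted p = 0.0375). Itgal, the LFA-1 chain of leukocytes, rose by 0.63 in sick KD against young KD (edgeR adjusted p = 0.0162) and was lower in old KO than in sick KD, at -0.62 (0.0188). Selp (P-selectin) rose by 1.93 in sick KD against young KD (edgeR adjusted p = 0.00608), at 36.9 and 42.1 CPM, while the old KO libraries held 35.5 and 32.7 CPM. In old KO against sick KD, calls were lost without sick KD mouse 1 for Icam4 (edgeR adjusted p = 0.0692), Itga9 (0.0981) and Icam1 (0.0803). They were lost without sick KD mouse 2 for Itga9 (edgeR adjusted p = 0.0793), without old KO mouse 1 for Itga9 (0.104), Icam1 (0.0561) and Itgal (0.0828), and without old KO mouse 2 for Itgal (0.104). Against young KD, Icam4 was lost without sick KD mouse 1 (edgeR adjusted p = 0.0763) or young KD mouse 1 (0.0744), and Itgal without young KD mouse 1 (0.171).

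LXR receptors sense oxysterols in macrophages that have taken up cells. Old KO exceeded sick KD for 6 of 13 genes in that list and was lower for 0 in edgeR or DESeq2 (median 0.68). The edgeR shares over all genes were 9.93% and 8.22%. In sick KD against young KD, 4 fell and 0 rose (median -0.49), against 11.4% and 9.45% of all genes. Scd1, a fatty acid desaturase, was 1.64 higher in old KO (edgeR adjusted p = 0.0203) and fell by 2.46 in sick KD (0.00568). Scd1 was also lower in old KO, at 16.5 and 23.9 CPM, than in young KO, at 39.5 and 35.9 CPM. Arl4c was 1.04 higher (edgeR adjusted p = 0.00496) and fell by 0.69 (0.0124). Rxra, the partner of LXR, was 0.92 higher (edgeR adjusted p = 0.0189) and fell by 0.66 (0.0485). Mylip, which marks the LDL receptor for degradation, fell by 1.01 (edgeR adjusted p = 0.0160), and the cholesterol exporter Abca1 was 0.68 higher in old KO (0.0388). Abca1 was lost without sick KD mouse 1 (edgeR adjusted p = 0.0889) or old KO mouse 1 (0.0771). Against young KD, Rxra was lost without sick KD mouse 1 (edgeR adjusted p = 0.0535), young KD mouse 1 (0.0699) or young KD mouse 2 (0.0508).

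In the IGF axis around Igf1, old KO exceeded sick KD for 5 of 15 genes and was lower for 3 (median 0.30). The shares over all genes were 9.93% and 8.22%. In sick KD against young KD, 4 fell and 3 rose (median -0.22), against 11.4% and 9.45% of all genes. Igfbp5, a secreted binding protein of IGF, was at 7.79 and 5.50 CPM in sick KD and at 18.7 to 42.8 CPM elsewhere. It was 2.41 higher in old KO (edgeR adjusted p = 0.00496) and fell by 2.21 in sick KD against young KD (0.00360). Igf2r, the receptor that clears IGF2, was 1.69 higher in old KO (edgeR adjusted p = 0.00493) and fell by 1.97 (0.00327). Irs1, an adaptor of the IGF1 and insulin receptors, was 1.53 higher in old KO (edgeR adjusted p = 0.0446) and fell by 3.61 (0.00743). Socs2 fell by 2.10 (edgeR adjusted p = 0.0153). Irs1 was also lower in old KO (1.48 and 1.16 CPM) than in young KO (2.96 and 4.57 CPM). The same held for Socs2, at 2.25 and 2.21 CPM against 4.09 and 3.96 CPM. Irs1 was near the floor in sick KD, at 0.319 and 0.564 CPM. Among the 3 genes lower in old KO, Igfbp6 had the largest change, at 4.43 and 3.52 CPM in sick KD and 1.26 and 1.26 CPM in old KO (log2 fold change -1.67, edgeR adjusted p = 0.0116, and 0.0540 without sick KD mouse 1). The old KO call of Irs1 was lost without sick KD mouse 1 (edgeR adjusted p = 0.190), sick KD mouse 2 (0.0591) or old KO mouse 1 (0.126) and in DESeq2 (adjusted p = 0.130), which called 3 genes of the list higher in old KO.

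In the young comparison, 0 of the 122 genes tested in these 7 lists passed in edgeR. At an unadjusted p under 0.05, 14 were higher, against 1.14% of all genes, and 1 was lower in young KO. DESeq2 called 2 higher. The other macrophage genes held 8 of those 14 and both DESeq2 calls. In old KO against young KO, 1 gene of the VCAM-1 list was higher in edgeR. Of the 109 genes in the remaining lists 0 passed, and DESeq2 called 6 higher and 2 lower. At an unadjusted p under 0.05, 21 were higher, against 4.44% of all genes, and 5 were lower. In the interaction, 4.32% of all genes were past the threshold in the positive and 3.11% in the negative direction. Past it were 7 higher and 1 lower of 23 other macrophage genes, 3 higher of 13 in the LXR list and 3 higher and 2 lower of 21 in the uptake list. The counts were 2 higher and 1 lower of 21 in the iron list, 2 higher of 19 in the complement list, 1 higher of 14 in the VCAM-1 list and 2 higher and 1 lower of 15 in the IGF list. In lists this small, a count of 1 lies near those shares.

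Markers of other marrow cells moved in the same mice. Of all genes, 9.93% were higher in old KO than in sick KD, and 11.4% fell in sick KD against young KD. Erythroid markers, the genes of the cells these macrophages surround, were higher in old KO than in sick KD for 11 of 11 genes tested (median 2.22), and 11 of 11 fell in sick KD against young KD (median -1.80). Their summed level was 955 and 1358 CPM in sick KD and 1997 to 5926 CPM in the other libraries. Stromal and endothelial markers were higher in old KO for 4 of 11, and 8 of 12 fell in sick KD against young KD, with sums of 117 and 129 CPM in sick KD and 193 to 323 CPM elsewhere. B-cell and plasma-cell markers were higher in old KO for 4 of 10, and 8 of 10 fell in sick KD against young KD. Their sums were 148 and 201 CPM in sick KD and 479 to 1047 CPM elsewhere. In healthy old KO against young KO, 7 of 10 of these markers also fell (median -2.09), where 0.929% of all genes passed. Osteoclast markers were higher in old KO for 1 of 4, and 1 of 4 fell against young KD. So few genes cannot be weighed against the 9.93% and 11.4% of all genes. The osteoclast sums were 25.0 and 24.8 CPM in sick KD and 38.0 to 48.7 CPM elsewhere.

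The summed markers of neutrophils and monocytes were highest in the sick KD libraries. Neutrophil markers were lower in old KO than in sick KD for 4 of 12, against 8.22% of all genes. They rose in sick KD against young KD for 3 of 12, against 9.45% of all genes. The neutrophil sums were 9134 and 7328 CPM in sick KD and 4056 to 5402 CPM elsewhere. For monocyte markers, 1 of 10 was higher and 1 lower in old KO, near the 9.93% and 8.22% of all genes. In sick KD against young KD, 2 rose and 1 fell, against 9.45% and 11.4% of all genes. The monocyte sums were 12593 and 11480 CPM in sick KD and 7440 to 10019 CPM elsewhere. In both comparisons 0 of 7 megakaryocyte markers passed in edgeR or DESeq2 or reached an unadjusted p under 0.05. Their sums, 145 and 76.2 CPM in sick KD, lay within the 58.7 to 229 CPM of the other libraries. The summed level of the other macrophage genes, 1681 and 1732 CPM in sick KD, lay within the 1507 to 2154 CPM of the rest. No defining marker of these lists was at 0 in all libraries. The part of cell composition, and of the higher share of reads outside genes in sick KD, in the low levels of the C1q, Vcam1, Spic and Cd5l genes was not tested.

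**Figure D5:**
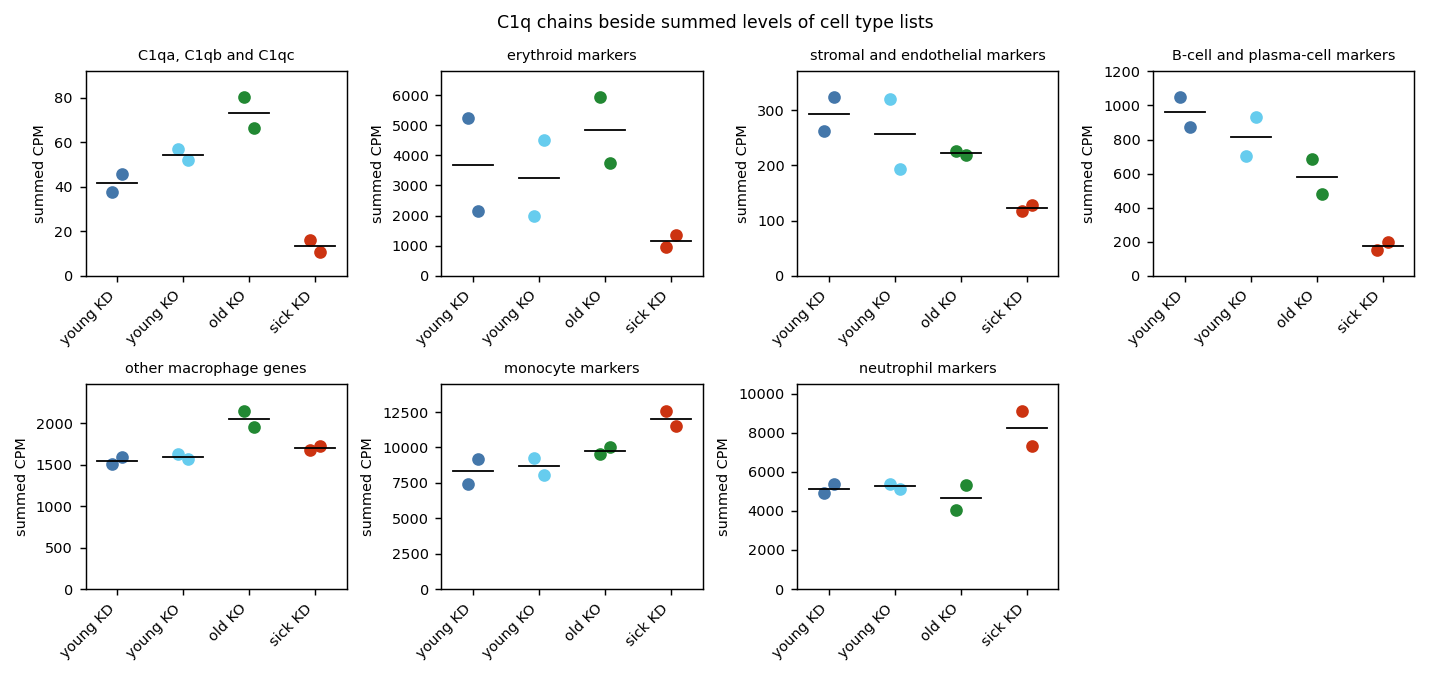
Summed TMM-normalized CPM (y axis, from 0) of the 3 C1q chains and of 6 lists of cell type genes in the 4 groups; a point is 1 library and a line the mean of 2. The C1q, erythroid, stromal and B-cell sums are lowest in the 2 sick KD libraries and the neutrophil and monocyte sums highest there.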

How the data were processed

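Whole BM RNA of 8 mice was profiled by RNA-seq with a stranded poly(A) kit. The authors aligned the reads to mm10 (GRCm38) with TopHat2 2.0.10, counted them on Ensembl genes with HTSeq, and deposited raw counts per gene and library without normalization. The strand setting of HTSeq is not given in the sources used here. Symbols came from GENCODE M21, for 40254 of 41214 identifiers. The 5 tallies of reads not assigned to a gene were left out of library sizes, and the reads outside genes made up 26.9% to 42.0% of uniquely mapped reads.

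Groups were taken from the labels. Libraries of 1 group differed beyond counting noise (chi-square per degree of freedom 21.8 to 35.9), so each was counted as 1 sample, and p-values measure the spread between 2 mice. Each comparison was fitted on its 4 mice with edgeR 4.0.16 in R 4.3.3 (TMM, filterByExpr by group, quasi-likelihood test, Benjamini-Hochberg over all genes tested, adjusted p under 0.05), and the interaction (old KO minus sick KD, less young KO minus young KD) on all 8. Each SE was the size of the log2 fold change over the root of its F. Alternatives were size factors and the Wald test of DESeq2 1.42.0, no filter, at least 10 counts in every mouse, removal of each library's GC and length trend, all 8 mice fitted together, CPM without TMM, a pseudocount of 5 and omission of each mouse in turn. Scripts were tested on simulated data.

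The members and the 14 gene lists were chosen with earlier results of these data known. 199 of 200 list genes were matched, and some genes are in more than 1 list. From each pathway list the text names up to 4 genes with the largest change past the threshold, separately in old KO against sick KD and in sick KD against young KD. It also names 6 macrophage markers and the 5 genes most like C1q or Igf1, with a mean of at least 1 CPM. The values of 1 list gene are not reported here.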

Additional observations from a re-analysis of the deposited data

Results flagged for a closer look

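The KO-to-KD difference of 6 genes was larger between old KO and sick KD mice than between the young groups, by the test of the difference itself in edgeR. The extra log2 difference was 2.65 for Cd5l (adjusted p = 0.0107), 2.48 for C1qa (0.00769) and 2.04 for C1qc (0.0151). It was 2.20 for Spic (edgeR adjusted p = 0.0429), 1.76 for C1qb (0.0310) and 1.09 for Vcam1 (0.0337). With each mouse left out in turn the values ran from 2.28 to 3.17 for Cd5l, 2.31 to 2.64 for C1qa, 1.71 to 2.44 for C1qc, 1.65 to 2.61 for Spic, 1.43 to 2.16 for C1qb and 0.84 to 1.29 for Vcam1. C1qa and Cd5l passed the threshold in all of these fits. Spic lost it in 7 of 8, Vcam1 in 7 of 8, C1qb in 5 of 8 and C1qc in 2 of 8. Old KO and sick KD mice differ in genotype and disease at once, and their part in this difference cannot be told apart.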

How the results depend on the processing

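No paired analysis was possible because every mouse carries a number of its own in the labels. Numbers of all genes past the threshold moved most. In young KO against young KD, 6 genes passed, 27 with DESeq2, 119 without a filter, 3 with all 8 mice together and 2 to 8 with 1 mouse left out. In old KO against sick KD, 2626 passed, 4325 without a filter, 4200 with all 8 mice and 1221 to 2795 with 1 mouse left out, lowest without sick KD mouse 1. In sick KD against young KD, 3063 passed and 1316 to 3401 with 1 mouse left out, lowest without young KD mouse 1. In old KO against young KO, 138 passed, 383 with DESeq2, 796 without a filter, 80 with GC and length trends removed and 17 to 307 with 1 mouse left out. For the interaction, 1122 passed, 1951 with DESeq2, 2919 without a filter, 1871 with GC and length trends removed and 106 to 1614 with 1 mouse left out. The cause was not tested.

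Of the 10 macrophage genes, 0 passed between the young groups in every alternative that kept all mice. Igf1 was not tested against sick KD or in the interaction, which leaves 9 genes there. Of those 9, 7 to 8 passed in old KO against sick KD and 6 to 7 in sick KD against young KD in these alternatives. In the edgeR fits first described, 9.93% of all genes were higher in old KO and 11.4% lower in sick KD. Between old and young KO 0 passed, except 2 without a filter. For the interaction, 2 to 6 passed with 1 mouse left out and 6 or 7 otherwise. With a mouse left out, signs reversed between the young groups for Spic (-0.34 to 0.30) and Igf1 (-0.31 to 0.18). They reversed between old and young KO for Spic (-0.24 to 0.73), Vcam1 (-0.14 to 0.32), Mertk (-0.15 to 0.082) and Igf1 (-0.11 to 0.37), and in the interaction for Hmox1 (-0.082 to 0.24). The lowest mean in sick KD was found for 9 genes with TMM, with size factors of DESeq2 and with total counts alone. This count is not independent of the choice of genes, since Igf1 was chosen by its low level in sick KD mice. No named gene of the pathway lists changed sign with a mouse left out. Spic and Igf1 rest on 17 to 40 reads in each sick KD library, which limits the precision that counting gives.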

Other observations

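Some genes of the other macrophage list were higher in the libraries labelled sick KD than in young KD, and they are named here after their values were seen. Beside Gpnmb, they included Trem2, a lipid receptor of macrophages (log2 fold change 0.58, SE 0.12, edgeR adjusted p = 0.0246), and Fcgr4, an IgG receptor (0.84, SE 0.21, 0.0377). Fcgr4 and Gpnmb were also the 2 genes of that list that were lower in old KO than in sick KD, at -0.70 (edgeR adjusted p = 0.0401) and -1.82 (edgeR adjusted p = 0.0329). In the same list, Lgmn, a lysosomal protease, fell by 0.48 in sick KD against young KD (SE 0.11, edgeR adjusted p = 0.0270), and the scavenger receptor gene Stab2 fell by 0.86 (SE 0.18, edgeR adjusted p = 0.0239).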
